A study of Homo sapiens with 6 samples.

Results

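The chromatin described here is the outer 2 Mb of the short arms of 14 human chromosomes (2, 3, 4, 6, 7, 8, 9, 10, 12, 16, 17, 18, 19 and 20) in HEK293T cells, an established embryonic kidney line. Peaks of ubiquitylated and of total H2A.Z were merged where they overlapped or touched, and a merged region was a member if its hg19 midpoint lay below 2 Mb. This gave 4780 of 198179 merged regions (2.41%). The rule uses peaks and positions and no fold change, but it was set with earlier results of these data known. The midpoint nearest to the limit on its inner side was that of chr12:1999468-1999851, a ubiquitylated peak, and the nearest beyond it was that of chr2:1999793-2001056, with peaks of both forms; neither region was differential.

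Per the labels' protocols, cells were transfected with H2A.Z-1 fused at its C-terminus to Flag and BirA, together with ubiquitin carrying an AviTag, at 3 parts to 1 part of plasmid, and chromatin was digested with micrococcal nuclease for 30 minutes, 48 hours after transfection. The ubiquitylated group comprised 2 streptavidin pull-downs, the total group 2 Flag pull-downs, and 2 H3 immunoprecipitates served as controls. All 3 groups came from the same kind of transfected cell. Flag beads bind the tag on the introduced H2A.Z, and streptavidin binds AviTag ubiquitin to which BirA has attached biotin; which histone carried that ubiquitin was not measured in these lists. Each peak or region has a single value in the deposited files, with none for a library, so read depth is unknown, no value per sample can be shown, and the spread between replicates enters through the authors' IDR and FDR alone.

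The histone variant H2A.Z replaces H2A in some nucleosomes, mainly at promoters, enhancers and other regulatory sites. Ubiquitin is attached to lysines in its C-terminal tail, and the best known enzyme for this is the RING1 ligase of Polycomb repressive complex 1. Monoubiquitylated H2A.Z has been linked to silent chromatin, including the inactive X chromosome, whereas unmodified and acetylated H2A.Z is found at active promoters. The ends of human chromosomes carry telomere repeats, then subtelomeric repeats shared between chromosomes, then the first genes, and many of them are rich in genes and in G and C bases.

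The 14 ends differ in what they carry. Band 16p13.3 is known to hold the alpha-globin genes HBZ, HBA2 and HBA1, the WNT scaffold AXIN1, the transcription factor SOX8 and the calcium channel CACNA1H. Band 4p16.3 holds the growth factor receptor FGFR3, the co-repressor CTBP1 and the homeobox gene NKX1-1. Band 6p25.3 holds the forkhead genes FOXQ1, FOXF2 and FOXC1, and 9p24.3 the gonad development gene DMRT1 with DMRT2 and DMRT3. Band 7p22.3 holds the growth factor PDGFA and the homeobox gene UNCX, 19p13.3 the kinase STK11, and 18p11.32 the thymidylate synthase gene TYMS. Band 3p26.3 holds the neuronal adhesion molecules CHL1 and CNTN6, and 8p23.3 the synaptic scaffold DLGAP2. These names are background on the bands, which can reach beyond 2 Mb, and each gene was found on that chromosome in the RefSeq table of GRCh38. No member was assigned to a gene, because the peak lists use another build, hg19.

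H2A.Z regions were dense at these ends, but unevenly so. The 14 ends held 170.7 regions per Mb, against 62.8 per Mb over the remainder of the same chromosomes (everything beyond 2 Mb, long-arm ends included), and 11 of 14 ends were denser than their own remainder. The remainder's length was counted from 2 Mb to the last merged region. Unsequenced stretches were not taken out of either length, which lowers the density where they lie. The count per end ran from 27 on 9p, 40 on 18p and 41 on 3p to 524 on 19p, 615 on 7p and 627 on 2p, with a mean of 341 ± 204 (SD, n = 14 ends). The 3 sparse ends were the ones with fewer regions per Mb than the rest of their chromosome. The end of 9p had 13.5 per Mb against 57.8 per Mb, that of 3p 20.5 against 48.4, and that of 18p 20.0 against 25.6. Regions covered 18.5% of the bases of the outer 2 Mb of 7p and 18.2% on 16p, but 0.553% on 9p. Neighbouring members were separated by a median of 1025 bp, compared with 2222 bp in the remainder.

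**Figure D1:**
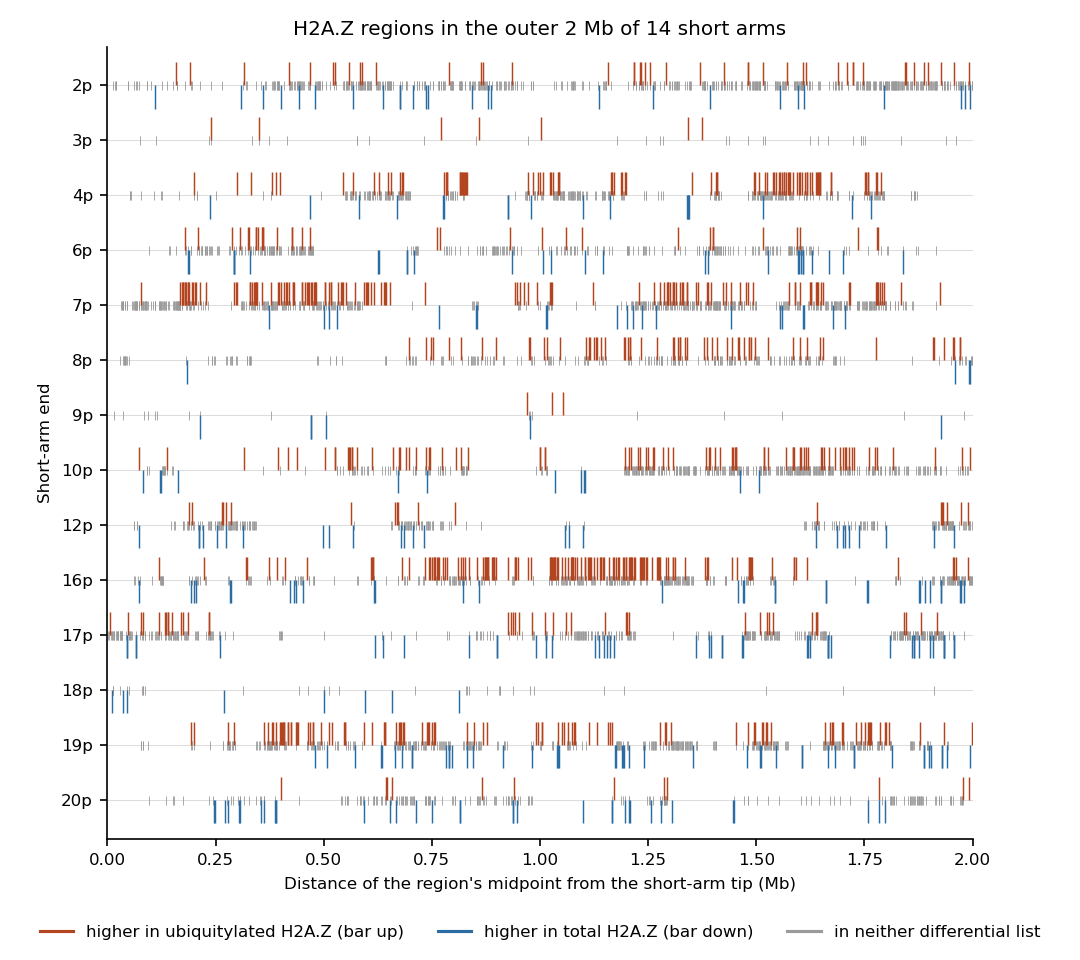
Each row is 1 short-arm end, the horizontal axis is the distance from the tip in Mb, and each vertical line is 1 of the 4780 regions, drawn upwards if higher in ubiquitylated H2A.Z, downwards if higher in total H2A.Z and short and grey if in neither differential list. Upward lines prevail on 4p, 7p, 8p, 10p and 16p, downward lines on 18p and 20p, and 3p, 9p and 18p hold few regions.

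Ubiquitylated peaks outnumbered total H2A.Z peaks at the ends. The members held 3953 ubiquitylated and 3126 total H2A.Z peaks, a ratio of 1.26, whereas the remainder held 83638 and 84830, a ratio of 0.986. This ratio was 1.30 at the long-arm ends of these chromosomes and 1.29 at the short-arm ends of chromosomes 1, 5 and 11. The ratio was higher in the end than in the remainder on 12 of 14 chromosomes. It was 2.64 on 8p (248 ubiquitylated and 94 total peaks) and 2.29 on 3p (39 and 17 peaks), and was close to even on 6p (259 and 258), 20p (170 and 165), 18p (28 and 26) and 12p (182 and 187). By region, 1771 members (37.1%) held ubiquitylated peaks alone, 2087 (43.7%, Wilson 95% interval 42.3 to 45.1%) held peaks of both forms, and 922 (19.3%) held total H2A.Z peaks alone. The same shares over all merged regions were 28.9%, 41.9% and 29.2%. The larger differences thus lay between the 2 kinds of single-list region. Total H2A.Z peaks alone marked 12.8% of regions at the long-arm ends and 12.9% at the short-arm ends of chromosomes 1, 5 and 11. Intervals of this kind cover counting error only, and neighbouring regions are not independent.

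**Figure D2:**
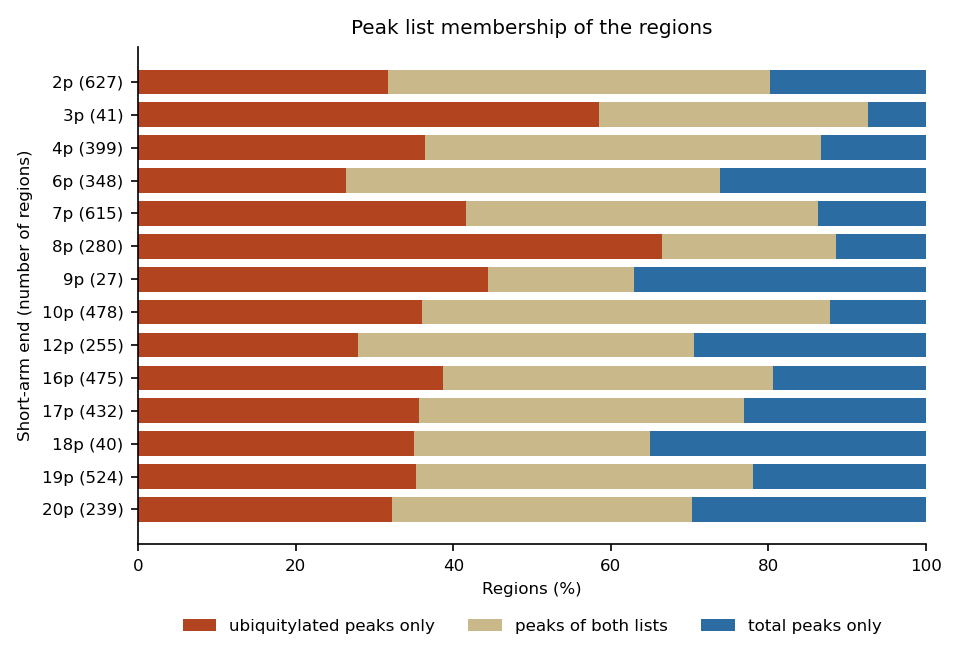
Each bar is 1 short-arm end with its number of regions in brackets, and the horizontal axis is the percent of its regions that held ubiquitylated peaks only, peaks of both lists or total peaks only. Ubiquitylated peaks alone made up 66.4% of regions on 8p and 58.5% on 3p, and 26.4% on 6p.

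The lists also gave an IDR, a measure by the authors in which a low value stands for good repeatability across replicates. The median of the lowest IDR per member was 0.00156 for ubiquitylated and 0.00394 for total H2A.Z peaks, compared with 0.00134 and 0.00327 over all merged regions, so the medians at the ends were the higher ones. The ubiquitylated peaks of lowest IDR lay in chr4:1535915-1537342 (1.41e-07), chr10:1555491-1555951 (2.01e-07) and chr19:1764934-1767029 (2.03e-07). The total H2A.Z peaks of lowest IDR lay in chr4:1052035-1052403 (2.91e-06), chr12:1059209-1059723 (4.29e-06) and chr19:479957-480362 (4.53e-06). All 6 regions held peaks of both forms. Of these, chr19:1764934-1767029 had a log2 fold change of 0.40 (FDR 0.0046) and chr19:479957-480362 one of -0.70 (FDR 0.00089), per the authors' deposited table.

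The streptavidin pull-downs were next compared with the Flag pull-downs, region by region, through the authors' differential test of ubiquitylated over total H2A.Z. Tagged H2A.Z on Flag beads includes any that is ubiquitylated. A region called higher in a form thus had relatively more signal in that pull-down, which is not an amount of that form. The authors' deposited table called 784 members (16.4%) higher in ubiquitylated H2A.Z, where the background over all merged regions was 9.39%. Towards total H2A.Z, the authors' deposited table called 310 members (6.49%), where the background was 12.1%. The share called in either direction was 22.9% and thus near the background of 21.5%, so the ends differed from other regions more in the direction of the calls than in their number. At an FDR under 0.01, the authors' deposited table leaves 439 members towards ubiquitylated H2A.Z (9.18%, background 5.16%) and 180 towards total H2A.Z (3.77%, background 7.09%), in sum 12.9% against a background of 12.3%. Of the 1094 differential members at the authors' limit, 71.7% (Wilson 95% interval 68.9 to 74.3%) were higher in ubiquitylated H2A.Z, against 41.7% in the remainder of the same chromosomes and 43.7% over all merged regions. Each group was recovered with its own reagent, so unequal recovery by streptavidin and Flag beads and unequal ubiquitylation cannot be told apart. The differences between the ends and other regions given here are descriptions and were not tested, since regions are not replicates and the lists hold no value per library.

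The ends did not act alike. The percent of differential regions that favoured ubiquitylated H2A.Z exceeded that of the remainder on 11 of 14 chromosomes and lay below it on 3, with a mean difference of 19.3 ± 31.1 percentage points (SD, n = 14 chromosomes). On 9 ends the Wilson interval lay above the share of the remainder, on 2 below it, and on 3 it included it. These intervals treat neighbouring regions as independent and may be too narrow, so this sorting is a description and not a test. Over the 11 ends with at least 20 differential members the mean difference was 23.9 ± 21.2 percentage points (SD, n = 11), above 0 on 10 of them.

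A first set of ends leaned strongly towards ubiquitylated H2A.Z. On 8p, 62 of 66 differential members (93.9%) were higher in ubiquitylated H2A.Z, against 58.3% in the rest of chromosome 8. On 10p they were 86 of 98 (87.8%, remainder 45.6%) and on 7p 138 of 159 (86.8%, remainder 44.2%). On 4p they were 93 of 111 (83.8%, remainder 42.2%) and on 16p 142 of 175 (81.1%, remainder 46.8%). The end of 3p had 7 differential members, all of them higher in ubiquitylated H2A.Z (Wilson interval 64.6 to 100%). These 6 ends exceeded 80%, although they differed in density from 20.5 regions per Mb on 3p to 307.5 on 7p.

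A second set was mixed. On 19p, 103 of 150 differential members (68.7%) were higher in ubiquitylated H2A.Z, against 35.3% in the rest of the chromosome, and on 2p 44 of 70 (62.9%, remainder 38.8%). On 6p they were 33 of 61 (54.1%, Wilson interval 41.7 to 66.0%, remainder 31.0%). The ends of 17p (42 of 88, 47.7%, remainder 40.7%) and 12p (19 of 45, 42.2%, remainder 37.1%) had intervals that included the share of their remainder.

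The ends of 20p and 18p leaned the other way. On 20p, 12 of 47 differential members (25.5%, Wilson upper limit 39.5%) were higher in ubiquitylated H2A.Z and 35 in total H2A.Z, against a share of 52.0% in the rest of chromosome 20. On 18p none of 8 differential members was higher in ubiquitylated H2A.Z (Wilson upper limit 32.4%) and all 8 were higher in total H2A.Z, against 46.9% in the remainder. On 9p 3 of 9 were higher in ubiquitylated H2A.Z, and the Wilson interval (12.1 to 64.6%) included the share of its remainder (46.7%). The dense end of 2p had few calls in either direction, as of its 627 regions 7.02% were called towards ubiquitylated and 4.15% towards total H2A.Z, both below the background.

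**Figure D3:**
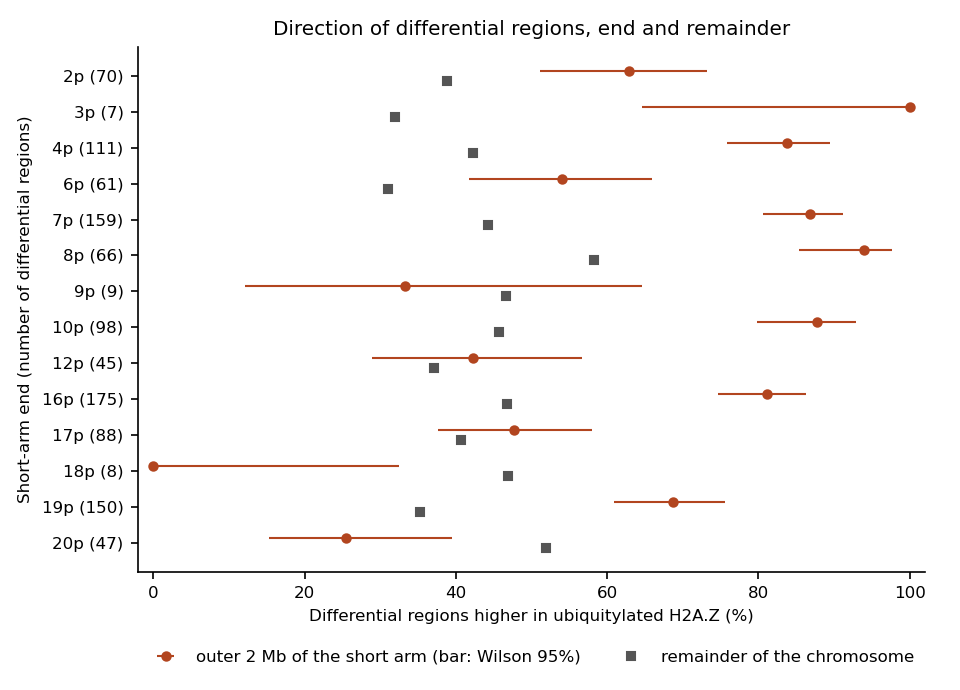
The horizontal axis is the percent of differential regions that were higher in ubiquitylated H2A.Z. Circles are the outer 2 Mb of each short arm with Wilson 95% intervals, squares are the remainder of the chromosome, and the number of differential members stands in brackets. The circles lie to the right of the squares on 11 chromosomes and to the left on 9p, 18p and 20p.

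Neighbouring calls within an end mostly shared a direction, about as often as over all merged regions. In 46 of the 70 windows of 0.25 Mb with at least 5 differential members, most of them were higher in ubiquitylated H2A.Z, in 19 most were higher in total H2A.Z, and 5 were split evenly. Windows of this kind were not counted elsewhere, so these counts alone do not show that directions were grouped at the ends. Consecutive differential members less than 10 kb apart shared a direction in 83.9% of 654 pairs, near the 81.0% found over all merged regions. By number of regions, the longest series with no call in the opposite direction was on 16p, over chr16:866891-1278790 (412 kb). It contained 83 regions towards ubiquitylated H2A.Z among 162 members, with a median width of 1037 bp, and the authors' deposited table gives them log2 fold changes with a median of 0.58. Within it, from 1 to 1.25 Mb, 58 of 128 members (45.3%) were higher in ubiquitylated and none in total H2A.Z.

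On 8p the series was long and loose, with 60 regions higher in ubiquitylated H2A.Z among 224 members over chr8:695917-1957269 (1261 kb). Of these 60 regions, 51 held ubiquitylated peaks alone. On 4p it was short and tight, with 32 of 72 members over chr4:1519340-1672430 (153 kb). On 10p 31 of 191 members over chr10:1516469-1995533 formed the longest series, and on 7p 29 of 111 members over chr7:78449-358313 and 23 of 59 members over chr7:378886-481528 followed each other. On 19p 26 of 76 members formed a series over chr19:193140-475198, nearest to the tip. Farther in, shorter series in both directions followed, of up to 11 regions towards ubiquitylated and 7 towards total H2A.Z. On 17p, one of the mixed ends, the longest series was of 13 regions towards ubiquitylated H2A.Z, over chr17:76742-234554.

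Series towards total H2A.Z were short. The longest held 11 regions among 25 members over chr20:246900-390028 (143 kb), and the median of their log2 fold changes was -0.71 by the authors' deposited table. The 8 differential members of 18p formed a single series over chr18:11217-813227, thinly spread along 802 kb. On 12p 7 regions lay over chr12:1685674-1910256, with fold changes whose median was -1.05 (log2) by the authors' deposited table, and on 17p 7 lay over chr17:259198-900984 and another 7 over chr17:1359790-1469835. On 6p, 11 regions higher in ubiquitylated H2A.Z lay over chr6:342251-469263, and 6 higher in total H2A.Z over chr6:1604375-1701093. A series ends here at 2 Mb by construction and may run on beyond it.

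The pattern changed along the first megabases. With the 14 chromosomes pooled, the density of regions was 122.9 per Mb in the outermost 0.25 Mb, reached 223.1 per Mb from 1.5 to 1.75 Mb, and was 135.7 per Mb from 2 to 3 Mb, 93.2 from 4 to 5 Mb and 56.7 from 15 to 20 Mb. The percent of regions called towards ubiquitylated H2A.Z was 10.7% in the outermost 0.25 Mb, 23.1% from 1 to 1.25 Mb and 10.6% from 1.75 to 2 Mb. It was 11.2% from 2 to 3 Mb, 8.05% from 4 to 5 Mb and 8.29% from 15 to 20 Mb. The percent higher in total H2A.Z lay between 3.98 and 8.60% within 2 Mb, was 8.16% from 2 to 3 Mb and 14.5% from 4 to 5 Mb. Regions higher in ubiquitylated H2A.Z outnumbered the others up to 4 Mb and thus beyond the 2 Mb limit of the rule. The bin from 1 to 1.25 Mb drew 58 of its 140 regions higher in ubiquitylated H2A.Z from 16p.

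**Figure D4:**
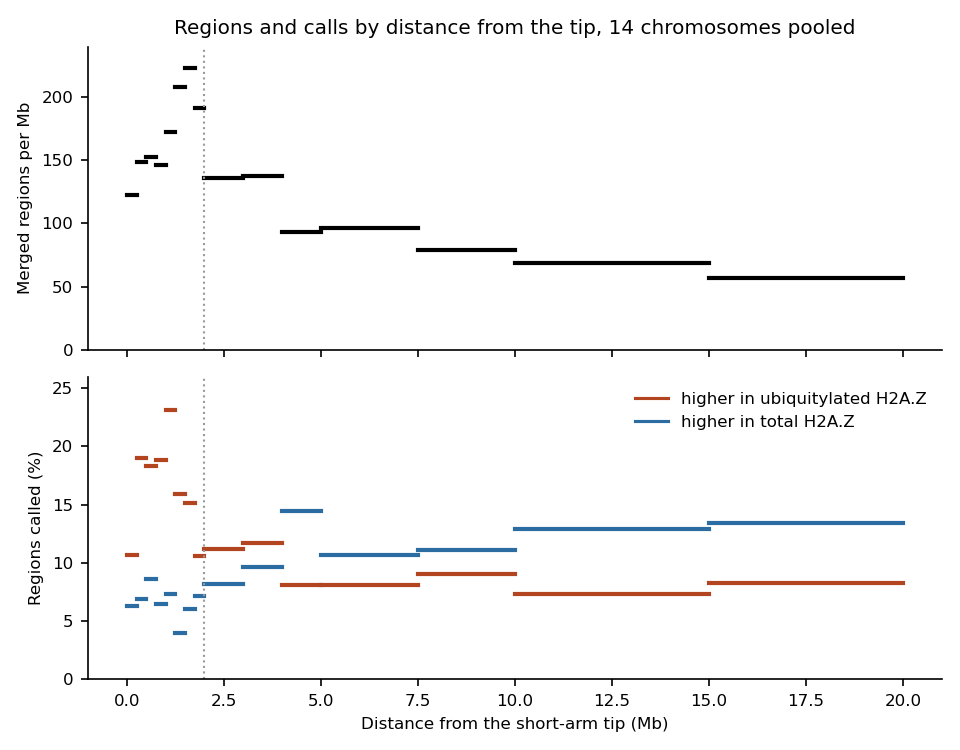
The upper panel gives merged regions per Mb and the lower panel the percent of regions called in each direction, against the distance from the short-arm tip in Mb, with the 14 chromosomes pooled and each horizontal line spanning 1 distance class. The dotted line marks 2 Mb. Calls towards ubiquitylated H2A.Z exceed those towards total H2A.Z in every class up to 4 Mb and lie below them in every class from 4 to 20 Mb.

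The members nearest to the tips, 1 on each chromosome, began between 2.03 kb from the start of the chromosome on 17p and 96.2 kb on 6p. Of these 14 regions, 3 held ubiquitylated peaks alone, 4 peaks of both forms and 7 total H2A.Z peaks alone. Differential by the authors' deposited table were chr10:73485-73814 (log2 fold change 0.70, FDR 0.0091) and chr18:11217-11456 (-0.62, FDR 0.027), which is 2 of 14 where the background of calls in either direction was 21.5%.

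Members were wider than other regions, with a median of 375 bp against 314 bp in the remainder, and were wider on 10 of 14 chromosomes. The median was 582 bp on 16p, 529 bp on 4p, 465 bp on 19p and 438 bp on 7p. It was 297 bp on 2p and 284.5 bp on 6p. Regions of at least 1500 bp made up 3.49% of members (167 regions) and 1.34% of the remainder, and 147 of these 167 lay on 16p (53), 4p (34), 7p (32) and 19p (28). The 3 widest were chr16:1128063-1133866 (5804 bp), chr4:980387-986125 (5739 bp) and chr4:1023620-1028552 (4933 bp). Each held peaks of both forms and leaned towards ubiquitylated H2A.Z, and the authors' deposited table gives them log2 fold changes of 0.35 (FDR 0.0041), 0.49 (FDR 3.5e-05) and 0.35 (FDR 0.0059).

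Width and direction went together, at the ends as over all merged regions. Members higher in ubiquitylated H2A.Z had a median width of 621 bp, whereas it was 377 bp where total H2A.Z was higher and 343 bp outside both differential lists. Over all merged regions the corresponding medians were 507, 362 and 295 bp. Under 250 bp, 64 members favoured ubiquitylated and 73 total H2A.Z (46.7% of the differential ones towards ubiquitylated H2A.Z). At 1500 bp or more, 83 favoured ubiquitylated and 3 total H2A.Z (96.5%, against 76.3% in the remainder and 80.4% over all merged regions). In each width class the share was higher at the ends than in the remainder. At 250 to under 500 bp, 64.8% of differential members were higher in ubiquitylated H2A.Z, against 35.6% in the remainder, and under 250 bp, where total H2A.Z had the more calls at the ends too, they were 46.7% against 30.8%. Wider members were called at smaller changes, since the authors' deposited table gives those called towards ubiquitylated H2A.Z a median log2 fold change of 0.45 at 1500 bp or more and 0.94 under 250 bp. In the remainder the authors' deposited table gives the corresponding medians as 0.47 and 0.95. The part of width in the calls was not tested beyond these classes.

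**Figure D5:**
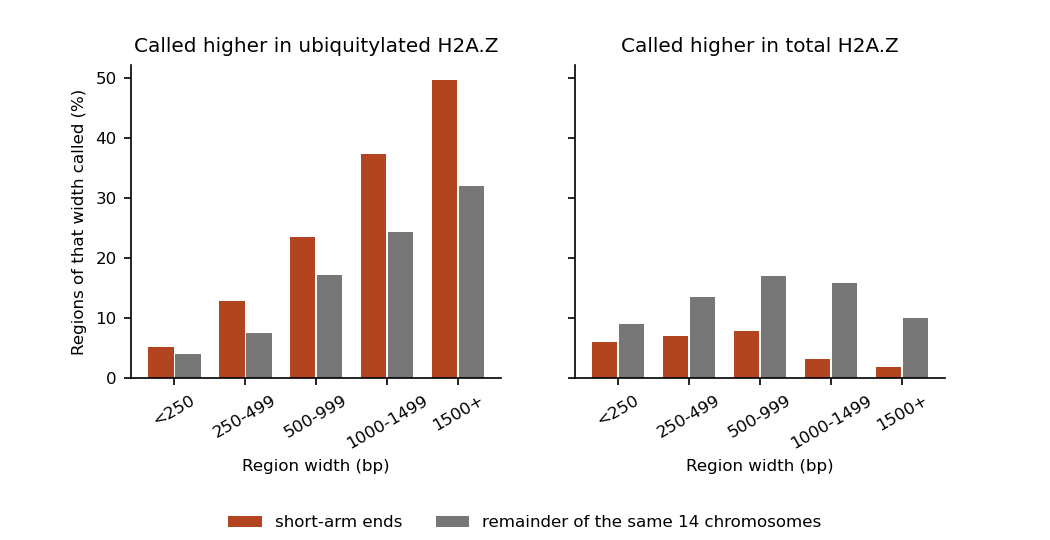
Bars give the percent of regions of each width class called higher in ubiquitylated H2A.Z (left) and higher in total H2A.Z (right), for the short-arm ends and for the remainder of the same 14 chromosomes. In each of the 5 classes the ends have more calls towards ubiquitylated and fewer towards total H2A.Z than the remainder, with 49.7% against 32.1% towards ubiquitylated H2A.Z at 1500 bp or more.

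The lean also appeared where both forms had a peak. Among the 2087 members that both lists share, 239 (11.5%) were called higher in ubiquitylated and 73 (3.50%) higher in total H2A.Z. The share towards ubiquitylated H2A.Z was 76.6%, against 42.4% for such regions in the remainder. Ubiquitylated peaks alone marked 1771 members, of which 536 (30.3%) went towards ubiquitylated H2A.Z and 2 the other way, where 23.8% of all regions of this kind went towards ubiquitylated H2A.Z. Total H2A.Z peaks alone marked 922, of which 9 went towards ubiquitylated and 235 (25.5%) towards total H2A.Z, where 30.5% of all regions of this kind went towards total H2A.Z. The peak lists and the differential test rest on the same libraries, so list membership and direction are not separate evidence.

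The sizes of the changes at the ends were close to those elsewhere. Members higher in ubiquitylated H2A.Z had log2 fold changes with a median of 0.65 by the authors' deposited table (quartiles 0.50 and 0.82), against 0.68 for all regions called that way. On the total side the authors' deposited table gave a median of -0.74 (quartiles -0.92 and -0.61) at the ends, against -0.76 for all such regions. Changes of 2-fold or more numbered 101 towards ubiquitylated H2A.Z (2.11% of members, background 1.47%) and 56 towards total H2A.Z (1.17%, background 2.39%) by the authors' deposited table, in sum 3.28% of members against a background of 3.86%. The ends held 4.21% of all calls towards ubiquitylated H2A.Z, 40 of the 1000 of lowest FDR and 1 of the 100 of lowest FDR. They held 1.29% of all calls towards total H2A.Z, 9 of the 1000 of lowest FDR and none of the 100 of lowest FDR.

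The member of lowest FDR was chr10:1913940-1914416, for which the authors' deposited table gives 2.48 (log2) at an FDR of 1.3e-14. The next in the authors' deposited table were chr4:994001-996242 (1.05, FDR 7.7e-12), chr7:1784245-1785847 (1.08, FDR 1.3e-11), chr16:1240358-1241988 (1.09, FDR 2.1e-11) and chr19:416619-417922 (1.20, FDR 9.3e-11). These were followed by chr10:1700161-1700483, 323 bp wide, at 3.01 (log2, FDR 6e-10) in the authors' deposited table, and by chr16:1236098-1238013 and chr19:1286999-1290230. All 8 held a single ubiquitylated peak and no total H2A.Z peak. The pair on 16p lay inside the series described above. Both regions on 10p were narrow (477 and 323 bp) with large fold changes, whereas the other 6 measured 1304 to 3232 bp.

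Towards total H2A.Z the lowest FDR belonged to chr20:1099305-1099809 (log2 fold change -1.43, FDR 3.9e-09) and chr20:814353-815293 (-1.08, FDR 1.1e-08) in the authors' deposited table. The others were chr19:680790-680952 (-2.62, FDR 9.4e-08), chr12:1714644-1715347 (-1.05, FDR 1e-07), chr19:570905-571802, chr17:1359790-1360397, chr19:1682718-1683168 and chr19:1929806-1930332 in the authors' deposited table. All 8 held a single total H2A.Z peak. The largest of these changes was that of the chromosome 19 region of 163 bp, whose peak had an IDR of 0.020. Chromosome 19 thus contributed 4 of the 8, although its end as a whole leaned towards ubiquitylated H2A.Z.

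On the ends not yet named, the differential member of lowest FDR was chr2:1254249-1254551 (1.86, FDR 2.5e-07), chr3:1374106-1374296 (1.38, FDR 0.00046), chr6:1399263-1399753 (1.09, FDR 2.3e-06) and chr8:1046451-1047933 (0.89, FDR 7.3e-07) towards ubiquitylated H2A.Z, as log2 fold changes of the authors' deposited table. Towards total H2A.Z it was chr9:469629-469965 (-1.57, FDR 2.1e-06) and chr18:812387-813227 (-1.02, FDR 3.4e-06) in the authors' deposited table. On 17p, where the directions were nearly balanced, it was chr17:980506-982238, 1733 bp wide and higher in ubiquitylated H2A.Z (0.94, FDR 1e-08 in the authors' deposited table).

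The short-arm ends were set beside the 2 kinds of region most like them. The outer 2 Mb of the long arms of the same 14 chromosomes, counted back from the last merged region, held 6855 regions (244.8 per Mb) of median width 451 bp. Of their 1913 differential regions 82.2% (Wilson interval 80.4 to 83.8%) were higher in ubiquitylated H2A.Z, against 71.7% at the short-arm ends. Counted in the same way from the first merged region, the short-arm ends held 174.1 regions per Mb with a share of 71.3%. The short-arm end had the lower share on 11 of 14 chromosomes. The exceptions were 3p, 8p and 19p. On 3p the share was 100% of 7 differential regions, against 21.1% of 19 on 3q. On 8p it was 93.9% of 66 against 62.0% of 129 on 8q, and on 19p 68.7% of 150 against 28.1% of 64 on 19q. Both ends of chromosomes 4, 7, 10 and 16 exceeded 80%. In contrast, 18p had 0% of 8 against 97.1% of 68 on 18q, and 20p had 25.5% of 47 against 87.1% of 240 on 20q. Without the long-arm ends, the remainder of the 14 chromosomes had a share of 38.4%. The short-arm ends of chromosomes 1, 5 and 11, which the rule leaves out, had a share of 80.9% (446 differential regions), a density of 265.3 regions per Mb and a median width of 495 bp.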

How the data were processed

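ChIP-seq of HEK293T cells comprised 2 samples each of ubiquitylated H2A.Z, total H2A.Z and H3, grouped by their titles. The submitters' processing notes name the build hg19 and Bowtie, SAMtools, MACS2 and edgeR, without role, version or setting. Each H2A.Z group has 1 peak list, in which the authors deposited an IDR (a q-value-like measure, up to 0.05) per peak. Both differential lists end at an FDR of 0.05. The fold changes the authors deposited were read as log2 values of ubiquitylated over total H2A.Z, because edgeR writes that scale; the base and the normalization between libraries are not stated. The FDR was read from the text field in which the authors deposited it.

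Starts were read as counted from 0, as in BED files, which nothing states, and raised by 1 base, and 1 start in scientific notation was read as a whole number. Peaks of both lists were merged where they overlapped or touched. All 42574 differential regions matched a merged region, and all 198179 merged regions served as the background. Members, comparisons and the rule for named regions (lowest FDR per direction and per chromosome, widest, nearest the tip, lowest IDR, longest series) were chosen with earlier results of these data known. Shares have Wilson 95% intervals, which cover counting error only. No test was run here, since no list holds a value per library; calls are the authors'. The labels do not say whether the 2 samples of a group came from separate cultures, so IDR and FDR may measure technical spread. Merging was checked on a small made-up example, and the share and its interval on simulated calls drawn independently. Clustering of calls and the other steps were not simulated. Versions were 3.11.15 for Python, 2.3.3 for pandas, 2.4.6 for numpy, 1.17.1 for scipy and 3.10.9 for matplotlib. Sequence and gene context were not analysed here, because the reference tables belong to GRCh38; they gave gene names only, 44 of 44 matched.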

Additional observations from a re-analysis of the deposited data

How the results depend on the processing

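No paired analysis was possible because the lists hold no value per library, which also kept replicates from being left out. Of the alternatives listed at the start, 3 were not run: both that need values per library and the one that needs an hg19 genome. Of 48 alternatives run, 20 gave a value inside the 95% interval of the value reported. All 14 alternatives for the share of differential members higher in ubiquitylated H2A.Z kept it above 50%. That share was 68.2% for the outer 3 Mb, 64.3% at 2-fold changes (remainder 35.2%), 64.8% for regions of 250 to 500 bp, 76.6% for regions with peaks of both lists and 81.6% over bases. It was 62.0% as a mean of 14 chromosomes of equal weight. Adding the short-arm ends of chromosomes 1, 5 and 11 gave 74.4%, and leaving out chromosomes 3, 9 and 18 gave 72.3%; these 2 alternatives were chosen after seeing the data.

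Leaving out 1 chromosome at a time, the share ran from 69.1% (without 7) to 73.8% (without 17). The percent called towards ubiquitylated H2A.Z ran from 14.9% (without 16) to 17.8% (without 2), and that towards total H2A.Z from 6.06 to 6.94%. Regions per Mb ran from 159.7 to 182.8, the share with peaks of both lists from 42.7 to 45% and the median width from 360 to 389 bp.

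The percent called towards ubiquitylated H2A.Z was 14.9% for the outer 3 Mb, 9.18% at FDR under 0.01 and 2.11% at 2-fold changes, and that towards total H2A.Z was 3.77 and 1.17% at these limits. Regions numbered 142.6 per Mb in the outer 1 Mb and 159.0 in the outer 3 Mb. The share with peaks of both lists was 39.98% in the outer 1 Mb and 51.5% with a peak of IDR under 0.01, where the median width was 387 bp; it was 360 bp in the outer 3 Mb. Median log2 fold changes were 0.74 and -0.84 at FDR under 0.01, and 1.17 and -1.13 at 2-fold changes, which follows from the limits themselves; for the other values that moved the cause was not tested. Depth is unknown and limits every region's call.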
